A study of Mus musculus with 3 samples.

Results

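The matrix metalloproteinase, ADAMTS and TIMP genes were followed in C3H10T1/2, a fibroblast-like line from mouse embryos that serves in cell transformation assays, with and without earlier exposure to hexavalent chromium, Cr(VI). Members were all non-control array probes named for an Mmp, Adamts or Timp gene with a number (the suffixes a and b were allowed for Mmp), which gave 43 genes of 27822 on the array and 73 probes of 41174. They comprised 21 Mmp genes, 18 Adamts genes and 4 Timp genes. The 3 groups were untreated cells, cells given 0.01 uM Cr(VI) and cells given 1 uM Cr(VI), with no strain, genotype or further agent named in the labels. Each group had 3 flasks seeded with 2000 cells. Exposure began 24 h after seeding and lasted 48 h, and the cells were then rinsed, kept in fresh medium to 15 days and trypsinized, after which 1 portion went to RNA and another to a soft agar assay. The labels do not say whether the flasks were pooled. Each group was measured on 1 array, so there was no replicate, no test was made between the groups, and each difference below lies between 2 single arrays.

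Matrix metalloproteinases (MMPs) are zinc-dependent enzymes that are made as inactive precursors and cut collagens, proteoglycans, adhesion proteins and other proteases outside the cell or at its surface. ADAMTS proteases are secreted relatives with thrombospondin motifs that cut large proteoglycans, trim procollagens or process microfibril proteins, and the tissue inhibitors of metalloproteinases (TIMPs) block the active site of many of these enzymes. In fibroblasts, several MMP genes are classical targets of AP-1, the Fos and Jun family of transcription factors, in response to cytokines, growth factors and tumour promoters.

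Signals are given as log2 of the Cy3 intensity minus the 75th percentile of the same array, so 0 is the brightness of the probe at that percentile and 1 unit is a 2-fold step. A gene stands for its brightest probe, and levels of different genes' probes were not set against each other. Of the 43 genes, 21 were well above background in untreated cells, 17 at 0.01 uM and 23 at 1 uM, which was 48.8%, 39.5% and 53.5% of them, against 42.8%, 38.6% and 42.8% of all genes on the same arrays. On all 3 arrays 17 members passed, 23 passed on at least 1, and 20 passed on none. The lowest signal among detected probes was -2.98 untreated, -2.11 at 0.01 uM and -2.81 at 1 uM, so the 0.01 uM array had the highest limit of detection. Replicate spots of a probe had a median SD of 0.058, 0.057 and 0.061 in the same order, and the scanner's error model gave a median technical standard error (SE) of 0.20 for a member's log2 difference, neither of which holds differences between cultures.

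Defining fibroblast markers were detected on the arrays, 10 of 10 on the untreated and 0.01 uM arrays and 9 of 10 on the 1 uM array, where Thy1, a surface glycoprotein of fibroblasts, was not well above background. Thy1 read -3.56 at 1 uM against 2.84 untreated, at least 50.2-fold lower. Col1a1, Col1a2 and S100a4 were saturated on all 3 arrays, so the summed signal of the list is not compared. Of 11 macrophage markers, 3 were detected on the untreated array, 3 at 0.01 uM and 4 at 1 uM (Cd68, Cd14 and Lyz2, with Aif1 added at 1 uM), their summed signal ran from 3.26 to 3.47, and the defining genes Ptprc, Tyrobp, Laptm5, Csf1r, Itgam and Emr1 were on none. Among 7 neutrophil markers only Ltf was detected, with -1.91 on the untreated array and -0.84 on the 1 uM array. The summed list signal, -0.14 at 1 uM against -1.20 untreated, also holds background values of the undetected genes and is not read as a rise of the list. Cdh5, detected at 1 uM, was the 1 detected gene of 4 endothelial markers, and none of 6 epithelial markers was detected. Fewer cells of a type and less RNA per cell cannot be told apart in RNA from whole cultures.

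A run of 8 Mmp genes lies side by side on mouse chromosome 9, among them the collagenases and the stromelysins Mmp3 and Mmp10, and the promoters of some of them are set out here because the largest differences of the family fell in this run. The 120 bases before the transcription start follow for the 3 cluster genes detected on any array (Mmp3, Mmp13 and Mmp10), for 2 cluster genes detected on none (Mmp1a and Mmp8) and, for contrast, for the membrane-type gene Mmp14. Sequences are those of RefSeq on GRCm38.p6, written 5′ to 3′, and capitals mark letters that match the AP-1 motif TGANTCA, the TATA box TATAAA or the RUNX motif AACCACA.
Mmp3: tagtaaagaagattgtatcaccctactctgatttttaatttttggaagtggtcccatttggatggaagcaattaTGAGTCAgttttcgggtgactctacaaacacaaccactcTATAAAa
Mmp13: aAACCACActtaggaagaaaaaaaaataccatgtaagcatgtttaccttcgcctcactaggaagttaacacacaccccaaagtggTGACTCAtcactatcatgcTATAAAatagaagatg
Mmp10: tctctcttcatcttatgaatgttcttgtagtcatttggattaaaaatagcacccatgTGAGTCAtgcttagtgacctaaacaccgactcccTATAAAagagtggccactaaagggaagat
Mmp1a: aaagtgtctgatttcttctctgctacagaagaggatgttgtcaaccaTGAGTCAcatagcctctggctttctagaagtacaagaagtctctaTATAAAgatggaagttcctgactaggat
Mmp8: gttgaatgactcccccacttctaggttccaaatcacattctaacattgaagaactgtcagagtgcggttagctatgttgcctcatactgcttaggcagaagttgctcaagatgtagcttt
Mmp14: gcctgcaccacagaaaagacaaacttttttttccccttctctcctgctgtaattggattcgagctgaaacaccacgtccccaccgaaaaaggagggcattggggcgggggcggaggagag
On the plus strand of GRCm38.p6 these windows are chr9:7445702-7445821 for Mmp3, chr9:7272394-7272513 for Mmp13, chr9:7502222-7502341 for Mmp10, chr9:7464021-7464140 for Mmp1a, chr9:7558309-7558428 for Mmp8 and chr14:54431478-54431597 for Mmp14.

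Counting -1 as the base before the RefSeq start, the AP-1 match begins at -46 in Mmp3, -35 in Mmp13, -63 in Mmp10 and -73 in Mmp1a. The TATA match begins at -7, -16, -29 and -28 in the same order. Where transcription starts in these cells was not measured, so the distances are not compared between genes. Mmp13 alone among the 6 holds the RUNX letters, at -119, and the Mmp8 and Mmp14 windows hold none of the 3 motifs. The search covered 250 bases before the start in the 29 members with a RefSeq promoter, on both strands for AP-1 and RUNX and on the gene's strand for TATA, and the motifs do not overlap one another in the stretches shown. Members without such a promoter, among them Mmp2, Mmp17, Adamts4, Adamts5 and Adamts7, were not searched, so it is not known whether they hold these letters. Among the members searched, AP-1 letters were present in 7, namely Mmp1a, Mmp3, Mmp7, Mmp10, Mmp12, Mmp13 and Mmp20, all in the chromosome 9 run. That stands against 7.82% of 27025 genes and 6.75% of all 32851 windows. TATA letters were present in 8 members (Adamts1, Mmp1a, Mmp3, Mmp7, Mmp10, Mmp13, Mmp20 and Mmp21), against 8.94% of genes and 7.59% of windows, and RUNX letters in Mmp7 and Mmp13, against 5.08% of genes and 4.4% of windows. A match is a description of letters, and it was found both in cluster genes that were detected and in ones that were not.

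After 1 uM Cr(VI), Mmp3, Mmp13 and Adamts7 were at least 2-fold above the untreated array, and the proteoglycanase Adamts5 and the membrane-type Mmp17 were lower. Of the 23 members that could be compared, 3 reached 2-fold above untreated, which is 13% of them against 5.55% of 12461 genes, and 2 reached 2-fold below, 8.70% against 4.87%. At 1.5-fold the counts were 6 higher and 5 lower, against 13.8% and 13.4% of all genes. The median difference of the 19 members measured on both arrays was -0.23, with 9 above 0 and 10 below, against a median of -0.03 over all genes. The family thus lay on both sides of the untreated values. Scaling on the spike-in controls moved the median of all genes to 0.65 and that of the members to 0.45 by adding 1 constant per array, with 8 members at least 2-fold higher and 0 lower. After the other 4 scalings 3 or 4 were higher and 1 lower (Mmp17, with Adamts5 inside 2-fold), and after normexp 3 were higher and 0 lower. With the mean of a gene's probes in place of the brightest, the members' median was 0.12, against -0.01 for all genes, so its side of all genes depended on that choice.

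**Figure D1:**
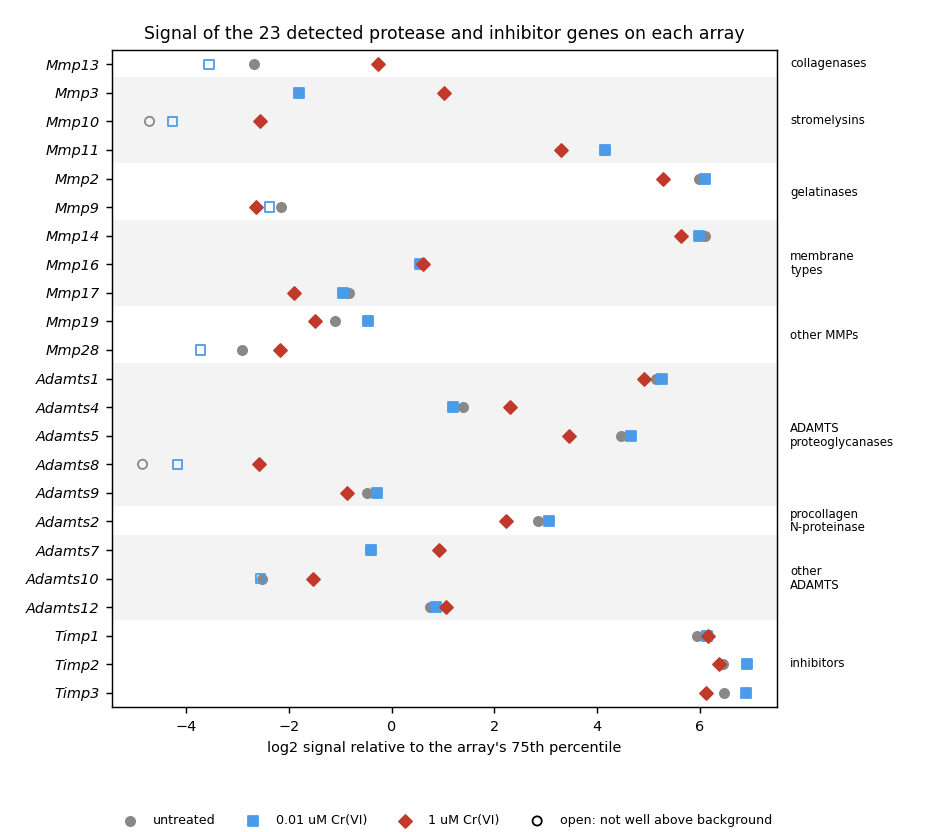
Log2 signal, relative to the array's 75th percentile, of the 23 genes detected on at least 1 array, with 1 point per array in order of dose and open symbols where the probe was not well above background. Mmp3 and Mmp13 at 1 uM lie well to the right of their other points, while Mmp2, Mmp11, Adamts2 and Adamts5 lie to the left of theirs; an untreated point can be hidden behind the 0.01 uM point where both have nearly the same value, as in Mmp3 and Mmp11.

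Among the collagenases, which can cut the triple helix of fibrillar collagen, only Mmp13 was detected. Mmp13, collagenase 3, had signals of -2.69 on the untreated array, -3.56 at 0.01 uM, where it was not well above background, and -0.26 at 1 uM. The 1 uM signal thus stood apart from both others, 5.37-fold above untreated (log2 difference 2.43, technical SE 0.32) and at least 3.61-fold above 0.01 uM. The untreated signal lay close to the lowest detected on that array (-2.98). Across settings the difference from untreated ran from 1.57 to 3.11, so it stayed past 2-fold but its size depended on the processing. Its probe lies at chr9:7282762-7282821 on the plus strand of mm9 and begins at base 2072 of its listed transcript. Mmp8, the neutrophil collagenase, and Mmp1a, a mouse counterpart of interstitial collagenase, were not well above background on any array. The 2 probes of Mmp1a gave -5.01 and -5.04 at 1 uM against -5.21 on the untreated array for both, and 1 of them is also assigned to the near copy Mmp1b.

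The stromelysins divided. Mmp3, stromelysin 1, which cuts proteoglycans and fibronectin and activates other MMP precursors, had signals of -1.83 untreated, -1.81 at 0.01 uM and 1.01 at 1 uM. The lower dose thus matched the untreated value to within 0.02, with a technical SE of 0.34, while the higher dose was 7.06-fold above the lower (log2 difference 2.82, SE 0.31) and 7.15-fold above untreated. The probe lies at chr9:7455751-7455810 on the plus strand of mm9 and begins at base 1576 of its transcript. Mmp10, stromelysin 2, the closest relative of Mmp3, was detected at 1 uM alone, with -4.72 untreated, -4.27 at 0.01 uM and -2.57 at 1 uM. Since both other values lay below background, its probe (chr9:7510011-7510070) gives a bound, at least 1.33-fold above untreated, and no fold against 0.01 uM. Mmp11, stromelysin 3, is on chromosome 10 and differs from the others in being activated inside the cell by furin-like convertases. It went the other way, with 4.16 untreated, 4.16 at 0.01 uM and 3.29 at 1 uM, which is 1.83-fold lower than untreated (log2 difference -0.87, SE 0.20).

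**Figure D2:**
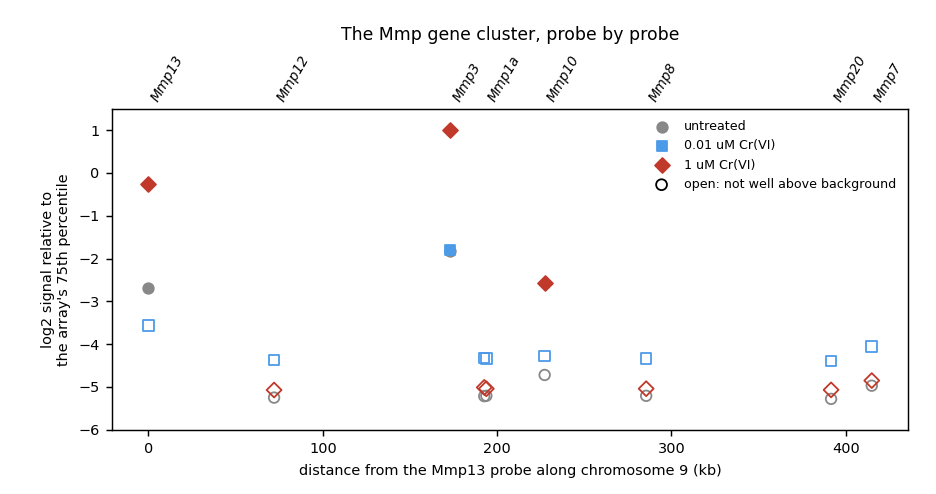
Log2 signal of the 9 probes of the 8 Mmp genes on chromosome 9, against distance in kb from the Mmp13 probe along mm9, with open symbols where the probe was not well above background. The 1 uM points of Mmp13, Mmp3 and Mmp10 are plotted above those of the other arrays. That of Mmp10 lies below the lowest detected signal of the 0.01 uM array (-2.11), so it has no fold against it. Mmp12 and both Mmp1a probes, between Mmp13 and Mmp10, were at background on every array.

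Along the chromosome 9 run, whose 9 probes span 415 kb of mm9 in the order Mmp13, Mmp12, Mmp3, Mmp1a, Mmp10, Mmp8, Mmp20 and Mmp7, detection was not shared by neighbours. Mmp3 was detected on all 3 arrays, Mmp13 on the untreated and 1 uM arrays and Mmp10 at 1 uM, while the other 5 genes were detected on none. Mmp12, macrophage elastase, lies between Mmp13 and Mmp3 and gave -5.25 untreated, -4.37 at 0.01 uM and -5.07 at 1 uM, and Mmp1a lies between Mmp3 and Mmp10. Mmp7, matrilysin, and Mmp20, the enamel protease enamelysin, lie at the far end and were also at background. All of these dim probes read highest at 0.01 uM, the array with the highest limit of detection, and no difference is given for them. All 3 detected genes have the AP-1 letters within the 250 bases searched, and so do 4 of the 5 undetected ones, the exception being Mmp8.

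The gelatinases, which digest denatured collagen and basement membrane collagen, were both lower at 1 uM by less than 2-fold, although spike-in scaling turned the sign of Mmp9 (0.19) and left Mmp2 at -0.01, and the mean of both Mmp9 probes also turned its sign (0.12). Mmp2, gelatinase A, had signals of 5.99 untreated, 6.10 at 0.01 uM and 5.29 at 1 uM, with a difference of -0.70 (SE 0.20) at 1 uM. Mmp9, gelatinase B, was read by a probe with 10 replicate spots and gave -2.16 untreated, -2.39 at 0.01 uM, not well above background, and -2.65 at 1 uM. The SD between its spots was 0.20 untreated, 0.43 at 0.01 uM and 0.11 at 1 uM, and the difference at 1 uM against untreated was -0.49 (technical SE 0.13). The other Mmp9 probe was dim on all arrays.

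Of the 6 membrane types, which are anchored at the cell surface, 3 were detected. Mmp14, the main membrane-type enzyme of fibroblasts, which activates the Mmp2 precursor together with Timp2, had 6.10 untreated, 5.99 at 0.01 uM and 5.64 at 1 uM. Its difference at 1 uM was -0.46 (SE 0.20) in the brighter probe and -0.17 in the other, and it was above 0 after spike-in scaling, so no direction is given for it. Mmp16 was nearly level, with 0.56, 0.56 and 0.61 in order of dose. Mmp17, which is held by a lipid anchor, had -0.83 untreated, -0.95 at 0.01 uM and -1.90 at 1 uM, 2.10-fold lower than untreated (log2 difference -1.07, SE 0.27). Its probe for this value lies at chr5:130113835-130113894 on the plus strand of mm9, and the other Mmp17 probe, dim at 1 uM, gave a bound of -0.83. Of the rest, Mmp15, Mmp24 and Mmp25 were on none of the arrays well above background.

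Of the other MMPs, Mmp19, a secreted enzyme with a wide range of matrix substrates, was the 1 member at least 1.5-fold from untreated at the lower dose, with -1.10 untreated, -0.47 at 0.01 uM and -1.48 at 1 uM. Mmp19 was thus highest at 0.01 uM, by 0.64 (SE 0.25) over untreated, and at 1 uM it was 2.02-fold below 0.01 uM. Across settings its difference at 0.01 uM ran from 0.45 to 0.94. Scaling on the 75th percentile of detected probes gave 0.576, just under 1.5-fold, so that call depended on the scaling. Mmp28, epilysin, gave -2.92 untreated and -2.17 at 1 uM, close to the detection limit of both arrays, with a difference of 0.75 and a technical SE of 0.40, and was dim at 0.01 uM. Its other probe was dim on all arrays, as were Mmp21 and Mmp23.

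**Figure D3:**
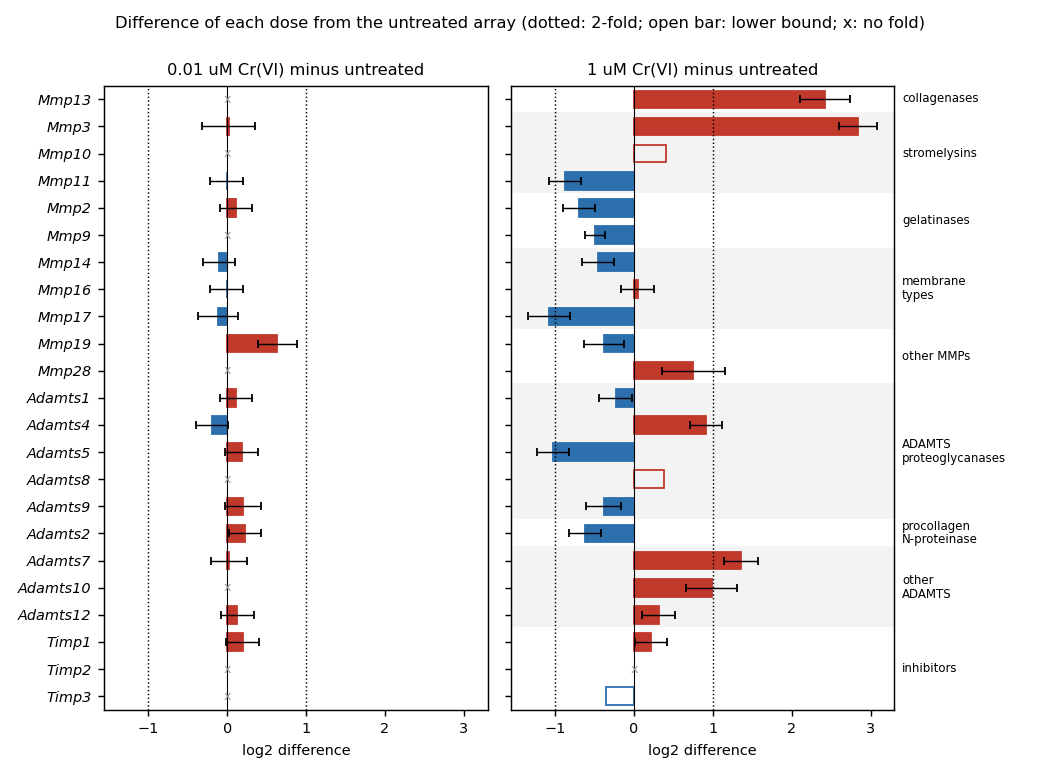
Log2 difference from the untreated array of the 23 detected genes at 0.01 uM (left) and 1 uM (right); bars carry the technical SE of the scanner error model, open bars are lower bounds and a cross marks a gene without a fold. At 0.01 uM no bar reaches the dotted 2-fold lines. At 1 uM Mmp13, Mmp3 and Adamts7 pass the upper line and Adamts5 and Mmp17 the lower. The Adamts5 bar falls short of the line under every other scaling and normexp, and the Mmp17 bar under spike-in scaling and normexp.

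Among the ADAMTS proteoglycanases, the aggrecanases Adamts4 and Adamts5, which cut the large cartilage-type proteoglycans aggrecan and versican, lay on opposite sides at 1 uM. Adamts4 had 1.39 untreated, 1.19 at 0.01 uM and 2.30 at 1 uM, which is 1.88-fold above untreated (log2 difference 0.91, SE 0.20). Adamts5 had 4.48 untreated, 4.66 at 0.01 uM and 3.45 at 1 uM. It was 2.04-fold lower than untreated by the brighter probe (chr16:85862677-85862736, minus strand of mm9, difference -1.03) and the second probe gave -1.21, so both probes of this gene passed 2-fold. Across the other settings Adamts5 ran from -1.12 to -0.34 and Adamts4 from 0.91 to 1.59, so neither changed sign. Every other scaling and normexp left Adamts5 inside 2-fold, so that call rests on the main scaling.

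The remaining proteoglycanases differed little. Adamts1, which also acts on versican, had 5.16 untreated, 5.27 at 0.01 uM and 4.93 at 1 uM, and Adamts9 had -0.49, -0.28 and -0.87 in order of dose. Both were less than 1.5-fold from untreated, and only 1 of the 4 Adamts9 probes was well above background on any array. Adamts8 was detected at 1 uM alone, by 1 of 2 adjoining probes, with -4.86 untreated, -4.17 at 0.01 uM and -2.59 at 1 uM, at least 1.31-fold above untreated, while the neighbouring probe stayed dim at -4.83. Adamts15 and Adamts20 were not detected.

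Of the 3 procollagen N-proteinases, which remove the amino-terminal propeptide of fibrillar procollagens, Adamts2 was detected, with 2.84 untreated, 3.07 at 0.01 uM and 2.22 at 1 uM. That is 1.54-fold lower at 1 uM by the brightest probe (difference -0.62, SE 0.20), a difference that came to 0.06 after spike-in scaling. Its 4 probes did not go the same way, since others gave -1.08 and a bound of -0.76, and the last a bound of 0.69. Adamts3 was at background. Adamts14 was at background by its representative probe. Its other probe gave -4.92 untreated, -4.06 at 0.01 uM and -1.45 at 1 uM, where it was detected. That places this probe at least 1.53 log2 units above untreated, past 2-fold, and 0.66 above 0.01 uM. Since counts follow the brightest probe, Adamts14 stands among the 20 members detected on none and outside the 23 compared at 1 uM.

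Of the 3 other detected ADAMTS genes, 1 reached 2-fold above untreated at 1 uM. Adamts7, which cuts cartilage oligomeric matrix protein, had -0.43 untreated, -0.41 at 0.01 uM and 0.93 at 1 uM. It was 2.56-fold above untreated (log2 difference 1.36, SE 0.21) and 2.52-fold above 0.01 uM, and its second probe gave 1.40 against untreated. Both probes lie on the plus strand of mm9, at chr9:90094702-90094761 and chr9:90094876-90094935, on the same chromosome as the Mmp run but far from it. Adamts12, the closest relative of Adamts7 with the same substrate, had 0.74, 0.87 and 1.06 in order of dose, a difference of 0.31 (SE 0.21) at 1 uM. Only 1 of its 3 probes was well above background on any array. Adamts10, which acts on fibrillin microfibrils, had -2.53 untreated, -2.56 at 0.01 uM, not well above background, and -1.54 at 1 uM, 1.98-fold above untreated (log2 difference 0.99, SE 0.32). It thus lay just inside 2-fold and passed it under 4 other settings, whereas Adamts4 passed it under spike-in scaling alone. The other Adamts10 probe was dim on all arrays, and the untreated signal of the first lay close to the lowest detected there (-2.98). Adamts6, Adamts13, Adamts16, Adamts18 and Adamts19 were not detected.

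Of the 4 inhibitors, 1 could be measured without saturation on every array. Timp1, a secreted inhibitor of most soluble MMPs, had 5.96 untreated, 6.15 at 0.01 uM and 6.17 at 1 uM, a difference of 0.21 (SE 0.20) at 1 uM, and its second, dimmer probe gave 0.31. Timp2 was saturated on all 3 arrays, so no fold can be given. Timp3, which binds to the matrix and also blocks aggrecanases, was saturated on the untreated and 0.01 uM arrays and read 6.12 at 1 uM, which places it at least 1.28-fold below untreated and at least 1.72-fold below 0.01 uM, with the bound against untreated changing sign after spike-in scaling. Timp4 was not detected. No inhibitor was therefore shown to be 2-fold apart at either dose.

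**Figure D4:**
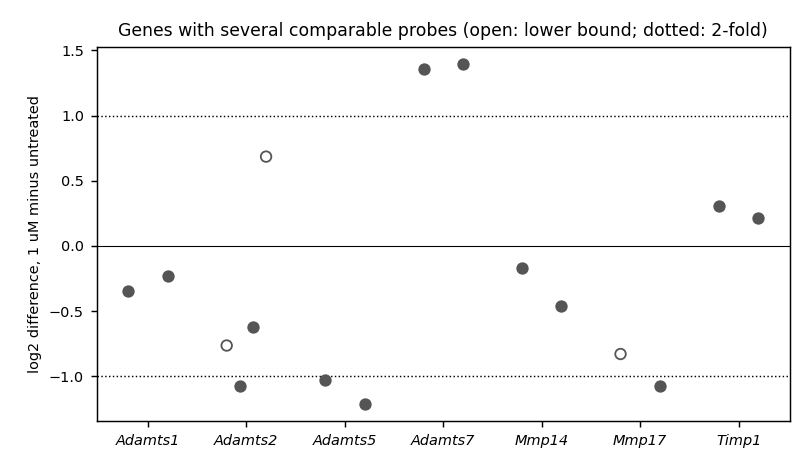
Log2 difference between the 1 uM and untreated arrays for each comparable probe of the 7 genes with more than 1 such probe; open circles are lower bounds and dotted lines mark 2-fold. Both Adamts7 probes lie above 1 and both Adamts5 probes below -1, while the Adamts2 probes lie on both sides of 0.

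Of the 43 members, 22 had more than 1 probe, and 7 had more than 1 that could be compared at 1 uM. In 6 of these the probes lay on the same side of 0, the exception being Adamts2. The second probe of Adamts1 gave -0.35, against -0.23 for the first. For Mmp16 the probe that was dim on all arrays spans 17019 bases of mm9 and so crosses an intron. Mmp3, Mmp13 and Mmp10 were each read by a single probe.

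When the measured members were grouped by the mean signal of their probe on both arrays, those at 3 or more (the brightly read Mmp2, Mmp11, Mmp14, Adamts1, Adamts5 and Timp1) had 1 above 0 and 5 below at 1 uM, with a median of -0.58, against -0.13 for the 2495 genes in the same range. Those between 0 and 3 had 4 above and 1 below, and those below 0 had 4 above and 4 below. Loess scaling, which removes differences that follow brightness, left the counts at 1 and 5 in the bright group, with a median of -0.37 against 0.02 for all genes there. After spike-in scaling 15 of the 19 measured members were above 0.

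At 0.01 uM no member was 2-fold from untreated, with 0 of 21 compared members higher and 0 lower, against 0.26% and 0.168% of 11924 genes. At 1.5-fold 1 was higher and 0 lower, against 0.897% and 1.14% of all genes. The median of the 15 members measured on both arrays was 0.11, with 10 above 0 and 5 below, against 0.06 for all genes. Apart from Mmp19 (above), the measured differences ran from -0.19 in Adamts4 to 0.23 in Adamts2, about the size of the technical SE. Of the 5 members 2-fold apart at 1 uM, Mmp13 was not well above background at 0.01 uM and has no difference there. The other 4 had differences at 0.01 uM of 0.02 for Mmp3, 0.02 for Adamts7, 0.18 for Adamts5 and -0.12 for Mmp17.

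Set against the lower dose, 4 of 23 members reached 2-fold above it on the 1 uM array and 2 reached 2-fold below, against 5.19% and 6.46% of 12067 genes. The 4 were Mmp3, Mmp13, Adamts7 and Adamts4 (2.15-fold), and the 2 were Adamts5 (2.31-fold) and Mmp19 (2.02-fold). All 4 stayed past 2-fold under each scaling and with normexp, although Mmp13, dim at 0.01 uM, is not compared when both arrays must be well above background. Adamts5 stayed past it in 8 of 12 settings and Mmp19 in 7, but neither did after loess, spike-in scaling or normexp. The median of 15 measured members was -0.35, against -0.11 for all genes. At 1.5-fold the higher count was still 4, against 12.3% of all genes, and the lower count was 8, against 17.3%. The 8 were Mmp2, Mmp11, Mmp17, Mmp19, Adamts2, Adamts5, Adamts9 and Timp3. This comparison and that with untreated cells share the 1 uM array.

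Genes that activate, restrain or serve as substrates of these enzymes were read for the 1 uM array against untreated, and their counts stand beside the 5.55% of all genes at least 2-fold higher and the 4.87% at least 2-fold lower. Among the 5 compared genes of plasminogen activation that are reported here, a route by which MMP precursors are activated, 1 reached 2-fold above untreated. Serpinb2, an inhibitor of urokinase-type plasminogen activator, was 4.68-fold higher, with -0.62 at 1 uM against -2.85 untreated. The receptor Plaur and the activators Plau and Plat were all within 1.5-fold of untreated, and Serpine2, an inhibitor of thrombin and plasminogen activators, was 1.78-fold lower, with 3.37 against 4.20. Of 6 compared other regulators, 0 reached 2-fold above and 3 reached 2-fold below, around a median of -0.83. Pcsk6, a convertase that can activate membrane-type and ADAMTS precursors, had -0.81 at 1 uM against 2.75 untreated and was 11.7-fold lower. Reck, a membrane-anchored inhibitor of several MMPs, had 1.00 against 2.53, 2.90-fold lower, and Bsg, a surface inducer of MMPs, had 4.36 against 5.42, 2.10-fold lower. The convertase Furin was within 1.5-fold. After spike-in scaling Pcsk6 was the only one of these 3 still past 2-fold, and Bsg was past it in 8 of 12 settings.

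**Figure D5:**
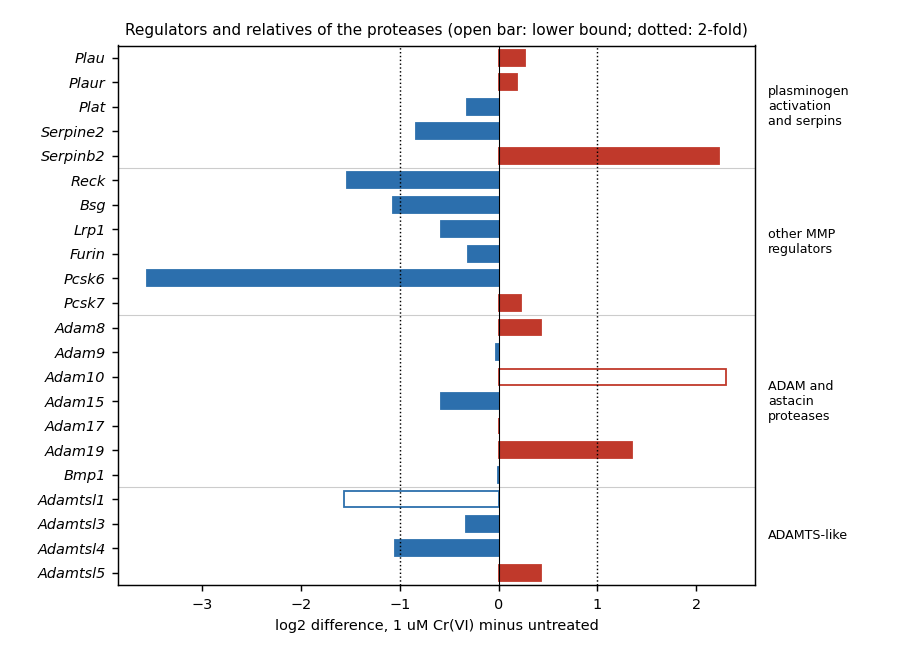
Log2 difference between the 1 uM and untreated arrays for compared genes of 4 lists of regulators and relatives of the proteases; open bars are lower bounds and dotted lines mark 2-fold. Pcsk6, Reck, Bsg, Adamtsl1 and Adamtsl4 extend past the lower line and Serpinb2, Adam10 and Adam19 past the upper. Spike-in scaling leaves only Pcsk6 of those lower past the line. Bsg also falls short under some other scalings, and Adamtsl4 under every other scaling and normexp.

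Of 7 compared ADAM and astacin proteases, membrane sheddases and procollagen C-proteinases, 2 reached 2-fold above and 0 below, and the 6 measured genes had 3 above 0 and 3 below. Adam10, a general sheddase, was detected at 1 uM alone, at -0.61, and was at least 4.94-fold above untreated. Adam19 had -0.04 against -1.39, 2.55-fold higher. After normexp neither passed 2-fold. Adam19 also fell short with the mean of its 3 probes and was past 2-fold in 10 of 12 settings. Of 4 compared ADAMTS-like proteins, which have the ADAMTS ancillary domains without the protease, 0 reached 2-fold above and 2 reached it below, with a median of -0.33 in the 3 measured genes. Adamtsl1 was at least 2.95-fold lower and Adamtsl4 2.06-fold lower, and neither was past 2-fold after spike-in scaling. Adamtsl4 was past 2-fold in 6 of 12 settings, and every other scaling and normexp left it inside.

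Among 14 compared substrates, 0 reached 2-fold above and 5 reached 2-fold below, and the 8 measured on both arrays had a median of -0.61. Col2a1, the fibrillar collagen that Mmp13 cuts readily, had -0.04 at 1 uM against 3.13 untreated, 9.0-fold lower, and Comp, the substrate of Adamts7 and Adamts12, was at least 6.08-fold lower. The proteoglycan Bgn was 2.35-fold lower, fibronectin (Fn1) at least 2.20-fold lower and elastin (Eln) 2.02-fold lower. Of 12 settings, Bgn was past 2-fold in 10, Fn1 in 9 and Eln in 7. Spike-in scaling left 2 of the 5 past 2-fold and moved the list's median to 0.07. Col1a1, Col1a2 and Spp1 were saturated on both arrays and gave no fold. The aggrecanase substrate Vcan was higher by 0.59 on the log2 scale, and Acan and Bcan were not detected.

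Of 18 compared transcriptional and cytokine inducers, 1 reached 2-fold above and 2 reached 2-fold below, around a median of -0.26. The AP-1 subunits Fos and Fosb were the 2, with -0.19 at 1 uM against 3.61 untreated for Fos, 14.0-fold lower, and -1.01 against 3.28 for Fosb, 19.6-fold lower. The other AP-1 genes were all within 2-fold and below 0, at -0.26 for Fosl1, -0.18 for Fosl2, -0.41 for Jun, -0.72 for Junb and -0.65 for Jund. Spike-in scaling moved values of this size to about 0 or above, while normexp took Junb past 2-fold lower, at -1.11. Il33, an alarmin cytokine, was the 1 higher gene, with 2.38 against 0.50, 3.70-fold. Runx2, a regulator of Mmp13 in cartilage and bone, was at -0.37 and Ets1 at 0.38. Across settings both changed sign, Runx2 running from -0.39 to 0.31 and Ets1 from -0.68 to 1.06. Of the cytokines that commonly induce MMPs, Il1b and Tnf were not detected, Il6 was at 0.21 and Il1a was detected at 1 uM alone, at least 1.53-fold above untreated. At 0.01 uM none of the genes of these 6 lists was 2-fold from untreated.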

How the data were processed

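RNA from C3H10T1/2 cells was labelled with Cy3 and hybridised to 3 single-colour Agilent mouse arrays on 1 slide, 1 per group, per the labels and file headers. The authors extracted spot intensity with Agilent Feature Extraction 10.5.1.1 (build mm9), with spatial and multiplicative detrending and surrogates for dim spots, per the file headers. The authors' deposited value table holds log2 values, which differed from log2 processed signal by 1 constant per array (9.45 untreated, 9.01 at 0.01 uM and 9.56 at 1 uM), within 0.01 for over 99.8% of probes (99.84, 99.91 and 99.86%); the medians of its columns were -4.23, -3.96 and -4.03. So that table has the same scale, centre and sign as the values used here.

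Outlier-flagged and control spots were left out, spots of a probe averaged and the 75th percentile over all probes subtracted. A gene took its brightest probe over the 3 arrays and was compared if the deposited flags put it well above background on either array. Where 1 array was dim, the fold is a lower bound, set against its own dim value or that array's lowest detected signal, whichever was higher. Saturation of the brighter spot likewise gives a bound, and a gene saturated on both has no fold and counts as not apart. No p-value was computed, since each group has 1 array, and genes past 2-fold were counted beside the share of all genes. Technical errors come from the deposited processed-signal error. The number of arrays limits the precision.

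Every member was named, with up to 4 genes per direction of 6 further lists past 2-fold at 1 uM. A few unmoved list genes (Plau, Plat, Plaur, Serpine2, Furin, the AP-1 genes and cytokines among them) were named after their values were seen. A gene of these lists is not reported here. Members and lists were chosen with earlier results of these data known. Of the 73 probes, 59 matched a RefSeq accession (GRCm38.p6), all to the symbol in the file. Alternatives were 5 other scalings (loess span 0.4, 5 spike-in probes), normexp (limma 3.58.1 in R 4.3.3, offset 50), filters, probe rules and folds of 1.5 and 3. The counting was tested on simulated data. Other steps used Python 3.11.15, numpy 2.4.6, pandas 2.3.3, statsmodels 0.14.6 and matplotlib 3.10.9.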

Additional observations from a re-analysis of the deposited data

How the results depend on the processing

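Of 13 alternatives, those that changed only the fold threshold gave no new differences. The rest gave 599 values of single members, of which 471 moved by less than the median technical SE and 128 moved by more. Of those at least 2-fold apart, 0 changed sign. The filter on both arrays leaves measured differences as they were, and the authors' values differ by about 1 constant per array. Their values count among the 471 but could hardly move, so 471 is not a measure of stability. For 1 uM against untreated, 3 members were at least 2-fold higher and 2 lower; Mmp3, Mmp13 and Adamts7 stayed past 2-fold higher in all alternatives at that threshold, and at 3-fold Mmp3 and Mmp13 remained. The split was 4 and 1 when scaled on the 75th percentile or the median of detected probes or by loess, 3 and 1 by quantile normalization, 8 and 0 by spike-in scaling, 3 and 0 by normexp, 8 and 2 with no filter, 6 and 5 at 1.5-fold and 2 and 0 at 3-fold. For 1 uM against 0.01 uM (4 and 2), it was 4 and 1 by both scalings on detected probes, 4 and 0 by loess, spike-in and normexp, 3 and 2 with both arrays well above background, 4 and 3 by the mean of probes, 8 and 2 with no filter, 4 and 8 at 1.5-fold and 2 and 0 at 3-fold. For 0.01 uM against untreated (0 and 0), it was 1 and 0 at 1.5-fold. The members' median for 1 uM against untreated (-0.23) was 0.45 by spike-in scaling, -0.022 by normexp, 0.16 with no filter and 0.12 by the mean of probes. For 0.01 uM against untreated (0.11) it was 0.41 by spike-in scaling and 0.45 with no filter. For 1 uM against 0.01 uM (-0.35) it was -0.037 by quantile normalization, 0.011 by loess, 0.028 by spike-in scaling, -0.033 by normexp and -0.68 with no filter. Spike-in scaling moved the median of all genes to 0.65, 0.36 and 0.27 for 1 uM against untreated, 0.01 uM against untreated and 1 uM against 0.01 uM, where it was -0.03, 0.06 and -0.11. The cause of the other shifts was not tested. No filter adds genes at background on both arrays. No paired analysis was possible because each group has 1 array. Limits are the single array per group, saturated inhibitor spots, and a background on the 0.01 uM array that hides dim genes.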
